A study of Mus musculus with 26 samples.

Results

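The 5 arrays titled Control 1 to 5 were analysed here, of 26 arrays from 25 animals in the series. Each carried lung RNA of 1 control mouse, labelled with the red dye Cy5, beside a universal mouse reference RNA labelled with the green dye Cy3. The measurement was the log2 ratio of lung over reference, so a value of 1 stands for a level 2-fold higher in lung RNA and a negative value for a level higher in the reference. The values describe what control lung expressed above or below that common reference, and how far the 5 animals differed from each other.

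The series examined lungs of MutaMouse mice, whose genome holds a transgene used to score mutations, after repeated intratracheal doses of multiwalled carbon nanotubes suspended in mouse serum. The control mice were not given nanotubes. Their labels record olive oil alone, given by gavage, while the series' design text calls them a vehicle control, so the vehicle and its route are not settled here. The mice were about 12 weeks old, 4 doses were given a week apart, and the lungs were collected 56 days after the final one. The sample labels call the animals female and the design text calls them male. Lung, liver and heart were removed and frozen after exsanguination, RNA came from random sections of lung, and 200 ng was labelled for each array. The labels do not give the maker or the composition of the universal reference. Such preparations are commonly pools of RNA from several cultured mouse cell lines, so they hold much RNA of dividing cells and little of most specialised cell types.

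All 5 arrays carried lung RNA in Cy5 and reference RNA in Cy3, with no array labelled the other way round. A difference between the RNAs and a difference between the dyes therefore cannot be told apart for any single gene. The share of probes clearly brighter than background was 49.6% to 59.1% for the lung dye and 49.7% to 56.7% for the reference dye. The spike-in controls, RNAs added at known ratios, returned 0.941 to 0.959 of each unit of the expected log ratio, with correlations of 0.985 to 0.990. Controls 1 and 5 shared slide 1, and controls 2, 3 and 4 lay on slides 2, 3 and 4. The small number of arrays limits the precision, and the p-values measure only the spread between these 5 animals.

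The adult lung is built from many cell types that no cultured line reproduces as a whole. Alveolar type 2 cells make and store surfactant, the lipid and protein film that lowers surface tension, and flat alveolar type 1 cells form the gas exchange surface over a dense capillary bed. Club cells and ciliated cells line the airways, and alveolar macrophages clear the air spaces. Most of these cells divide rarely in a healthy adult.

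Among 18851 genes or transcripts above background in both dyes on at least 4 of the 5 arrays, 2335 were called higher in lung and 1835 lower. These are 12.4% and 9.73% of those tested, or 22.1% in either direction. A call means that the change exceeded 2-fold with an adjusted p under 0.05 in limma's treat test with Benjamini-Hochberg adjustment. Against a ratio of 0, with no margin, limma called 41.5% higher and 39% lower. All 5 animals lay on the same side of 0 for 4169 of the 4170 calls beyond 2-fold. The middle of the distribution sat at a log2 ratio of 0.02, and the 5th and 95th percentiles were -1.68 and 2.22. The upper tail was the longer: 251 features were at least 16-fold higher in lung and 39 at least 16-fold lower.

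**Figure D1:**
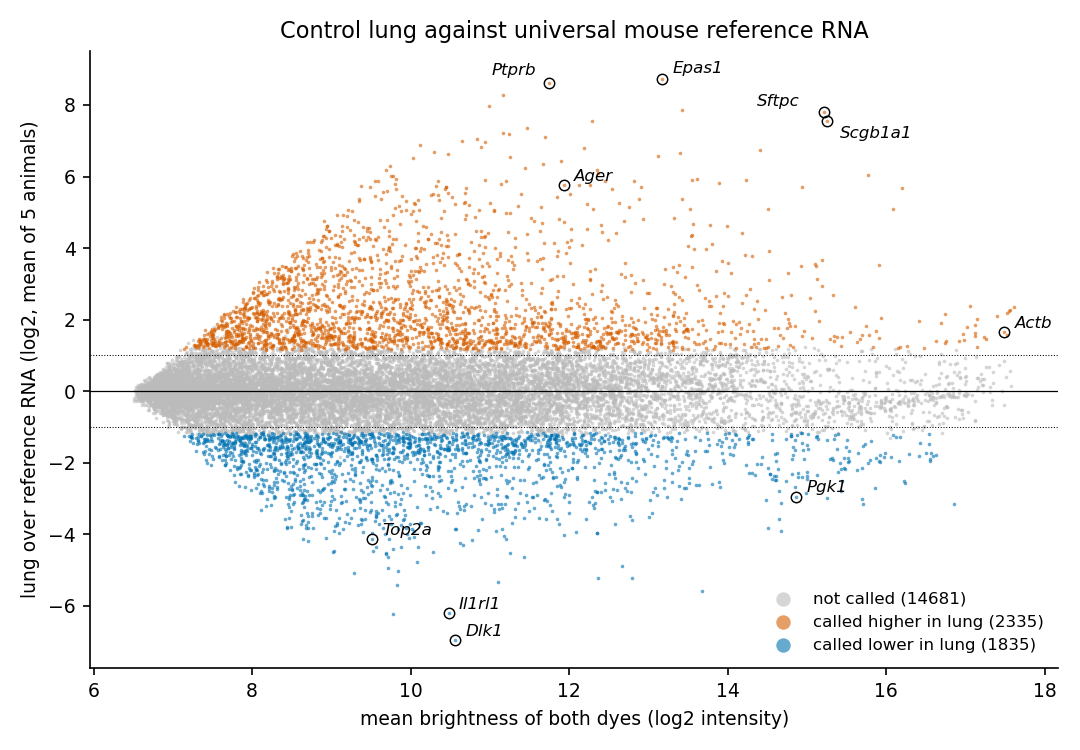
Mean log2 ratio of control lung over reference RNA (vertical axis, 5 animals) against the mean log2 intensity of both dyes (horizontal axis) for each of 18851 genes or transcripts, with dotted lines at 2-fold. The 2335 features called higher (orange) reach 8.73 for Epas1, and the 1835 called lower (blue) reach -6.95 for Dlk1. Extreme ratios are scarce among the dimmest features.

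A further 1009 features were above background in lung RNA on at least 4 arrays and in reference RNA on none, and 515 showed the reverse. These carry only a bound. The bound sets the mean of the bright dye against, on each array, the higher of the dim probe's own signal and the lowest signal among probes above background in that dye. It uses each dye's values after loess and Aquantile normalisation and is open to dye bias. Of the rest, 7007 features were above background in part of the arrays and 9692 in neither dye. In whole tissue, fewer cells of a type and less RNA in each cell cannot be told apart.

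The labelled tissue was checked first against its defining genes. Sftpc, the surfactant protein that marks alveolar type 2 cells, had log2 ratios of 7.76, 7.40, 7.77, 8.23 and 7.80 in controls 1 to 5. Scgb1a1, the main secreted protein of club cells, had 7.90, 7.40, 7.38, 7.36 and 7.74. Ager, a receptor carried at high levels by alveolar type 1 cells, had 5.94, 5.60, 5.81, 5.96 and 5.48. Every animal was far above the reference for all 3 genes, and no animal was the lowest for each of them. The means were 7.79 ± 0.30, 7.56 ± 0.25 and 5.76 ± 0.21 (SD, n = 5), which are 222-fold, 188-fold and 54.2-fold. The adjusted p-values from limma's treat test were 1.66e-11, 9.13e-12 and 2.79e-11.

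The 12 highest ratios came from several cell types. Epas1, the hypoxia-inducible transcription factor abundant in lung endothelium and alveolar cells, led with 8.67, 8.67, 8.64, 8.84 and 8.83 in the 5 animals. That value belongs to its brightest probe, and its other 2 probes gave 0.46 and 4.74. Ptprb, a receptor phosphatase of blood vessel lining, followed at 8.64, 8.21, 8.94, 8.59 and 8.66, with 6.08 at its second probe. Limch1, an actin-binding protein, was nearly identical in all animals, with 8.28, 8.29, 8.26, 8.25 and 8.29. Its second probe gave 7.96 with a larger SD of 0.24 against 0.02. The different probes of these genes gave ratios of unlike size, and for Epas1 the second brightest probe was within 2-fold of the reference.

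The other genes among the 12 highest were Sec14l3 at 7.96, Sftpd at 7.85, Sparcl1 at 7.55, Serping1 at 7.36, Hbb-bs at 7.22, Lyz1 at 7.17 and Clic5 at 7.11, beside Sftpc and Scgb1a1. Sftpd is a collectin of the surfactant film, Serping1 inhibits the first complement component and Hbb-bs is an adult beta globin. Clic5 belongs to the chloride intracellular channel family and is high in alveolar type 1 cells. SDs over the animals in this group ran from 0.02 for Limch1 to 0.30 for Hbb-bs and Sftpc. Sec14l3 and Serping1 had a second probe with lower values, 5.25 and 5.40.

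**Figure D2:**
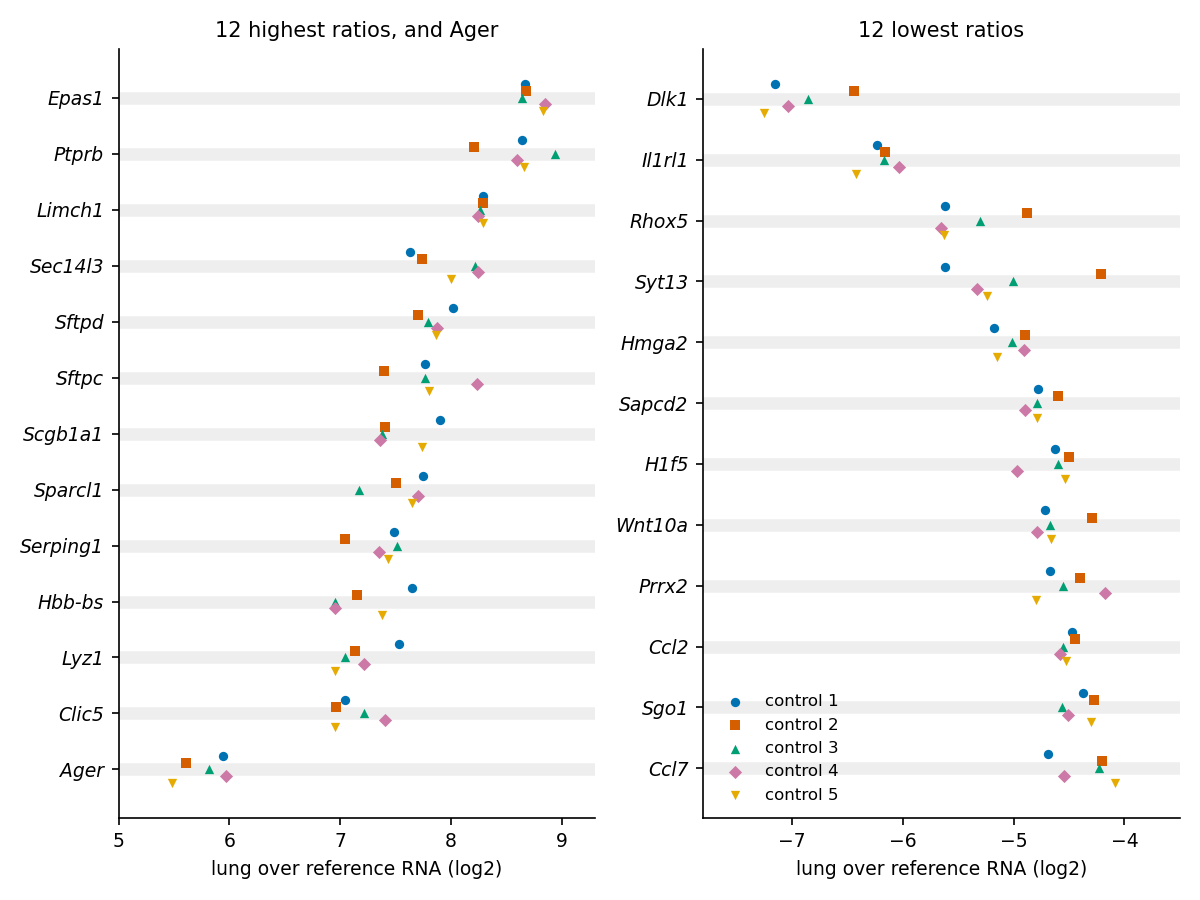
Log2 ratio of lung over reference RNA in each of the 5 control animals (symbols) for the 12 genes with the highest ratios and Ager (left) and the 12 with the lowest (right). The horizontal axes cover different ranges. The 5 animals lie close together for Limch1 and Ccl2 and are spread from -5.62 to -4.21 for Syt13.

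Genes seen in lung alone were led by Sfta3-ps, at least 139-fold higher, Hpgd, at least 97.5-fold, and Lyve1, at least 64.4-fold. Hpgd degrades prostaglandins and Lyve1 is a hyaluronan receptor of lymphatic vessels and some macrophages. Kit, the receptor for stem cell factor, was at least 63.8-fold higher and Il18r1, a receptor chain for interleukin 18, at least 58.2-fold. Cyyr1, Pcdh17 and Dapk1 followed at 56.9-fold, 37.3-fold and 35.5-fold. Tbx4, a transcription factor of lung mesenchyme, was at least 29.8-fold higher, and Sox17, a factor of arterial endothelium, at least 12.9-fold.

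Of 18 alveolar type 2 genes, all were tested, 17 were called higher and 1 lower, with a median of 4.17. The surfactant proteins Sftpa1, Sftpb, Sftpc and Sftpd had means of 6.65, 6.58, 7.79 and 7.85. Sftpb was 6.62, 6.39, 6.62, 6.66 and 6.62, with control 2 the lowest, and its second probe averaged 3.70. The processing enzymes Ctsh and Napsa, which cut surfactant protein precursors, were at 6.19 and 3.86. Abca3, which pumps lipid into lamellar bodies, was at 3.46. Slc34a2, the phosphate carrier of these cells, was at 4.49. Slc35f2, a member of a family of membrane transporters, was the single member lower in lung, with -1.97, -1.89, -1.72, -2.25 and -1.83.

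A wider list on surfactant lipids and lamellar bodies overlaps the alveolar type 2 list, with Sftpc, Abca3 and Napsa among the shared genes. It had 13 of 18 tested members higher and none lower, with a median of 2.67. Scd1, a desaturase, averaged 3.28 and Fasn, fatty acid synthase, 1.98. Acaca and Acly, which feed fatty acid synthesis, were not called at 0.69 and 1.23. Control 2 had the highest value for each of these 4 genes, for example 3.08 for Fasn against 1.60 to 1.87 in the other animals. The fat cell list was also highest in control 2, as described further on, and its part in these values was not tested. Pcyt1a, which makes the phosphatidylcholine precursor, was at 1.02 and not called, and Chka was at 0.00.

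Of 17 alveolar type 1 genes, 16 were matched and 15 tested, and 14 of these were higher in lung with a median of 3.92. Clic5 averaged 7.11, Akap5, a scaffold for kinases, 7.05 and Aqp5, a water channel, 5.65. Hopx, a homeodomain cofactor, was at 4.83 and Cav1, the main caveola protein, at 2.31. Pdpn, a membrane glycoprotein widely used to mark these cells, stayed near the reference at 0.19, 0.10, 0.60, 0.79 and 0.49. It was not called (mean 0.44 ± 0.28, n = 5). A ratio near 0 says only that lung and reference RNA held like amounts.

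Airway genes were high as well. Of 15 club and secretory genes, 11 were tested, 10 were higher and 1 was not called, with a median of 4.82. Cyp2f2, a P450 enzyme of club cells, averaged 6.73 and Aldh1a1 5.89. Scgb3a1 spread widely, with 4.53, 3.44, 3.55, 3.18 and 2.31. Muc5b, a gel-forming mucin, was 2.61 in control 1 and 0.95 to 1.35 in the other 4 animals. It was not called in all 5 animals (adjusted p = 0.0591, limma treat) and was called without control 1 or without control 5, with adjusted p-values of 0.0272 to 0.106 over the animals left out in turn. Gabrp and Reg3g were seen in lung alone, at least 8.89-fold and 1.84-fold higher.

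Of 16 ciliated cell genes, 12 were tested and 11 were higher, with a median of 4.16. Sec14l3 had the highest ratio and Ccdc153, Tppp3 and Dynlrb2 were at 5.47, 5.43 and 5.29. Foxj1, the transcription factor that switches on motile cilia, was 2.72, 2.81, 3.53, 3.64 and 3.00. Controls 3 and 4 were the highest pair for Foxj1 and the other tested members except Tppp3, Dynlrb2 and Dnah11. As a whole the ciliated list lay 0.40 above its mean over the animals in control 4 and 0.19 above in control 3, and between -0.30 and -0.11 in the others. Dnah5, a motor protein of the cilium, was at least 11.5-fold higher, and Mlf1 was not called at 0.94. Spag6 was seen in the reference alone, at least 1.36-fold higher there, Tmem212 was above background in part of the arrays and Dnah9 in neither dye.

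Endothelial genes were nearly all on the lung side. Of 23, 17 were tested, 16 were higher and none lower, with a median of 4.67. Cldn5, the tight junction protein of vessels, averaged 6.81, Tmem100 5.93, Vwf 5.76 and Ramp2 5.38. Icam2 was among the steadiest genes, at 4.64, 4.65, 4.67, 4.70 and 4.70. Pecam1, the general endothelial adhesion molecule, was at 3.33. Kdr, the main receptor for vascular endothelial growth factor, was not called at its brightest probe, which averaged 0.87. Its other probe averaged 6.53. Car4, a capillary carbonic anhydrase, likewise had 1.78 at the brighter and 4.23 at the dimmer probe. Cdh5, Tek, Calcrl and Ednrb were above background in part of the arrays only.

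Transcription factors known from lung development were mostly on the lung side. Of 21, 15 were tested and 14 of them were higher, with a median of 3.19. They ran from 0.07 for Elf3, which was not called, to 8.73 for Epas1. Nkx2-1, which sets lung epithelial identity, was 3.89, 3.86, 4.12, 4.27 and 4.00. Foxa2 and Foxa1, its partner forkhead factors, averaged 5.38 and 3.75, Tbx5 3.69 and Cebpa 3.19. Klf2, a factor of endothelium and of quiescent lymphocytes, averaged 4.44. The calls for Gata6 at 1.21 and Foxp1 at 1.18 lay just past the margin and were lost when single animals were left out, with adjusted p up to 0.0623 and 0.102. For Gata6 these were controls 3, 4 and 5, and for Foxp1 controls 2, 3, 4 and 5. Sox9 was seen in the reference alone, at least 3.95-fold higher there.

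Mesenchymal genes split in both directions. Of 23 fibroblast and smooth muscle genes, 22 were tested, 11 were higher, 2 lower and 9 not called, with a median of 1.17. Besides Limch1, the alveolar fibroblast genes Mfap4, Inmt, Tcf21 and Npnt were at 6.54, 5.90, 4.91 and 3.20. Gucy1a1, a subunit of the nitric oxide receptor, was at 5.71 ± 0.06. The 2 genes called lower were those of type I collagen: Col1a1 was -2.18, -2.49, -2.22, -2.07 and -2.46, and Col1a2 averaged -1.48. Col3a1, another fibrillar collagen gene of the list, was not called lower. Acta2 and Tagln, contractile genes of smooth muscle, were at -0.63 and 0.14 and were not called.

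The extracellular matrix list was spread over both sides. Of 25 tested genes, 8 were higher, 4 lower and 13 not called, with a median of 0.16. Of its basement membrane genes, Col4a4 at 3.97, Lama3 at 3.51, Col4a1 at 1.83 and Col4a2 at 1.64 were higher in lung. Col4a5 at 0.75, Lamb2 at 0.65, Lamc1 at 0.43, Hspg2 at 0.16 and Nid1 at -0.20 were not called. Eln, which encodes elastin, was 2.27, 2.29, 2.31, 2.26 and 2.20. The genes higher in the reference were Col1a1, Col5a1 at -2.17, Col1a2 and the fibronectin gene Fn1 at -1.34. Spon1 was seen in lung alone, at least 16.6-fold higher.

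**Figure D3:**
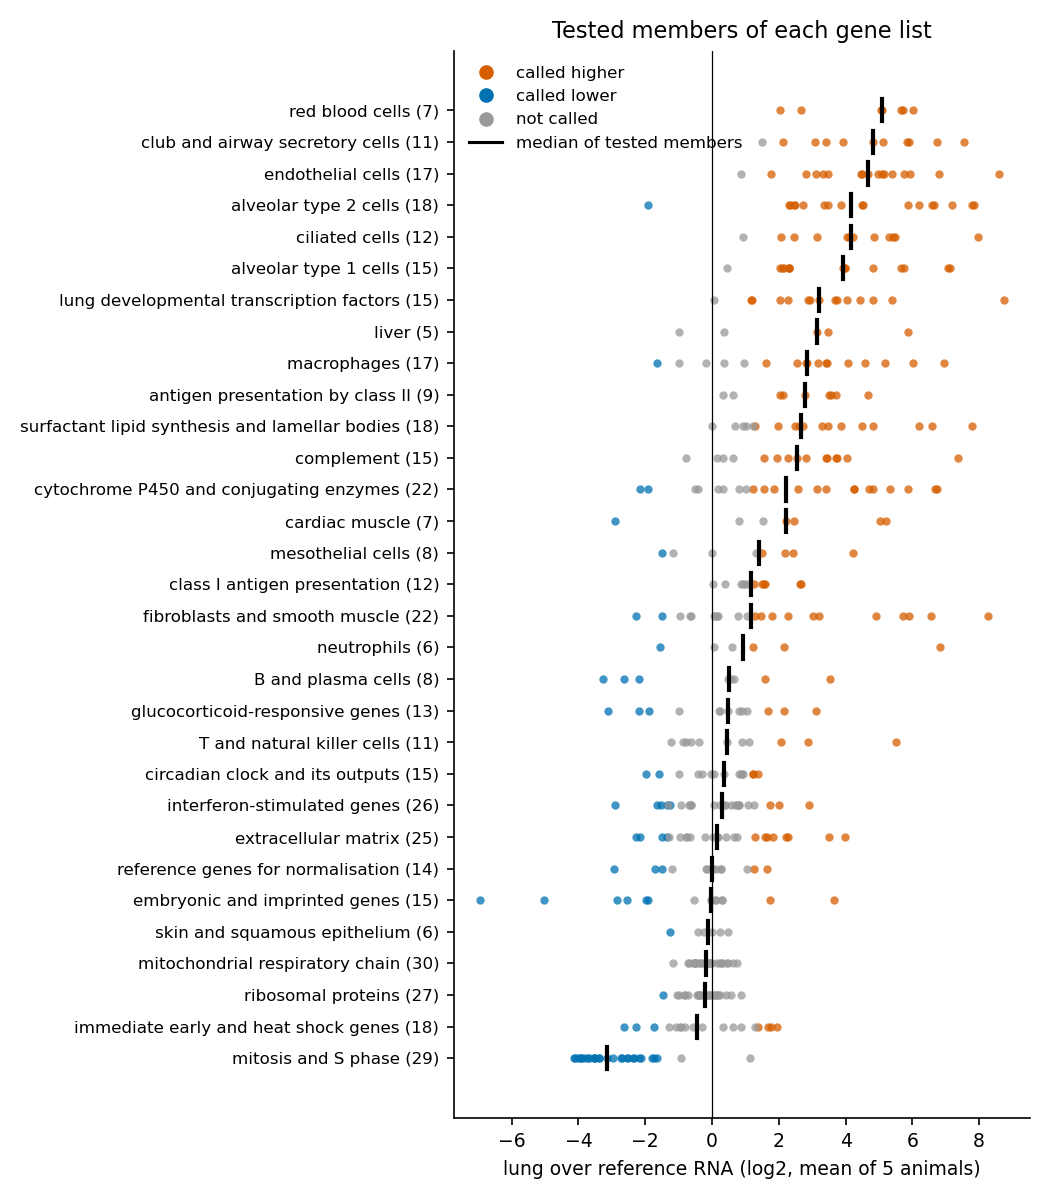
Mean log2 ratio (horizontal axis, 5 control animals) of each tested member of the gene lists with at least 5 tested members (number in brackets), with the list median as a black bar. Lists of lung cell types have medians of 3.92 to 4.82 for epithelium and endothelium, ribosomal proteins and the respiratory chain sit near 0, and mitosis and S phase has a median of -3.14.

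Of 22 macrophage genes, 20 were matched and 17 tested, of which 12 were higher, 1 lower and 4 not called, with a median of 2.85. Ear2 averaged 6.96, Plet1 6.03, Chil3 5.18 and Marco, a scavenger receptor of alveolar macrophages, 4.57. The complement starter genes C1qa, C1qb and C1qc were at 3.42, 2.55 and 2.83. Cd14, a lipopolysaccharide co-receptor, was lower in lung at -1.54, -1.93, -1.15, -1.74 and -1.91. Adgre1, the gene of the F4/80 antigen, was near the reference at 0.37. Fabp1 was seen in lung alone, at least 22.1-fold higher.

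Lymphocyte genes were less one-sided. Of 11 tested T and natural killer cell genes, 3 were higher and 8 not called, with a median of 0.45. Gzma, a granzyme of cytotoxic cells, was 5.65, 6.02, 5.35, 4.94 and 5.60. Cd3d averaged 2.89, but Cd3e and Lck were at -0.86 and -0.62. A further 5 members, Il7r, Klrd1, Klrb1c, Ncr1 and Cd8a, were seen in lung alone with bounds of 4.82-fold to 1.65-fold.

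Of 8 tested B and plasma cell genes, 2 were higher, 3 lower and 3 not called. Cr2, a complement receptor of B cells, averaged 3.53. The plasma cell genes Mzb1, Jchain and Pou2af1 were on the reference side, at -3.27, -2.63 and -2.18. Jchain, the joining chain of secreted antibody, was -1.08 in control 2 and between -3.15 and -2.80 in the other 4 animals. Ms4a1, the gene of CD20, was 0.70, 1.33, -0.18, -0.64 and 1.11, so the animals fell on both sides of the reference.

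Of 6 tested neutrophil genes, 3 were higher and 1, Mmp9 at -1.55, was lower, and a further 4 were seen in lung alone. S100a9, a subunit of calprotectin, was 7.45, 6.93, 7.59, 6.12 and 6.0. S100a8, its partner, was 3.32, 2.29, 3.57, 0.40 and 1.19. Controls 4 and 5 were the lowest for both. The call for S100a8 (mean 2.15, adjusted p = 0.0423, limma treat) was lost without control 1, 2 or 3, with adjusted p up to 0.192. Csf3r, also called higher, averaged 1.23. Its call was lost without control 2 or 3 (adjusted p up to 0.0627, limma treat) and under median centring, where it fell to 0.65. Mmp9 also lost its call under median centring (adjusted p = 0.190, limma treat). All 7 tested red blood cell genes were higher, with a median of 5.10, from Slc4a1, the anion exchanger, at 2.03 to Hba-a1 at 6.03. The globin genes are near-identical copies, so their probes may read more than one of them.

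Antigen presentation was mainly on the lung side. For class II, 7 of 9 tested genes were higher, with a median of 2.77. H2-Ab1 averaged 4.66, H2-DMb1 3.70 and Cd74, the invariant chain, 3.57. For class I, 6 of 12 were higher and none lower, led by H2-D1 at 2.68 and H2-K1 at 2.64. B2m, the common light chain, was at 1.27, and its call was lost without control 1, 2, 3 or 5 (adjusted p up to 0.138).

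Of 15 tested complement genes, 11 were higher and none lower, with a median of 2.55. Besides Serping1, C4b was at 4.04, C2 at 3.72, Cfb at 3.45 and C3 at 1.95. Of 26 tested interferon-stimulated genes, 3 were higher, 5 lower and 18 not called, with a median of 0.30, beside 12.4% and 9.73% of all tested features. Gbp2 averaged 2.91 and Ifit3 2.00. Oasl1 was lower at -2.91, and Cxcl10, a chemokine for activated T cells, was at -1.66. The calls for Cxcl10 and for Irf7, at -1.53, were lost under median centring (adjusted p = 0.115 and 0.289) and in both fits over all 25 animals. Irf7 also lost its call without control 3 (adjusted p = 0.0706).

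Drug and toxin metabolism was strongly represented. Of 22 tested P450 and conjugating enzyme genes, 14 were higher, 2 lower and 6 not called, with a median of 2.22. Besides Cyp2f2, Ces1d, a carboxylesterase, averaged 6.69, Cyp2b10 5.88 ± 0.04, Fmo1 5.32 and Gsta3 4.82. Cyp2e1 was 4.35 in control 2 and 2.60 to 3.20 in the others. Nqo1, a quinone reductase, was on the reference side at -2.28, -2.28, -1.99, -2.09 and -2.08, and Cyp1b1 averaged -1.91.

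The most uniform group below the reference was mitosis and S phase. Of 34 genes, 29 were tested, none was higher, 27 were lower and 2 were not called, with a median of -3.14 against 0.02 over all tested features. Top2a, which untangles DNA before division, was -4.10, -3.90, -4.30, -4.31 and -4.07. Ccnb1, the cyclin of mitotic entry, was -4.19, -4.0, -4.20, -4.10 and -3.98. Every animal was far below the reference for both, and no animal stood apart. Mki67, the proliferation marker, averaged -3.92, Rrm2, which makes DNA precursors, -4.01, and the replication helicase genes Mcm2 to Mcm7 -2.72 to -1.73.

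The members not called were Tyms, thymidylate synthase, at -0.94 and Ccnd1, the cyclin of the first growth phase, at 1.13. Cdc6, a replication licensing factor, was seen in the reference alone, at least 3.45-fold higher there. Cdk1 and Kif11 were above background in part of the arrays and Aurkb and Ccne2 in neither dye.

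Promoter sequence was set beside these groups. RefSeq's table of promoters, on build GRCm38.p6, spans 250 bases before to 50 after each gene's start and held 10105 of the 12702 tested genes with a symbol. A search on both strands was made for CCAAT, the letters bound by the factor NF-Y, TTTGAA, the core of an element found before many cell cycle genes, and TATAAA, the TATA box. CCAAT was in 70.4% of the 27 mitosis and S phase promoters, against 38.6% of promoters of tested genes and 37.9% of all 27025 in the table. TTTGAA was in 40.7%, 11.9% and 18.1%, and TATAAA in 0, 7.58% and 14.2%. The 27 promoters belong to members of the list of 34 genes, tested or not. In promoters of all genes called lower, CCAAT was in 44.8% and TTTGAA in 16.0%. TTTGAA was also in 28.6% of 14 alveolar type 2, 21.4% of 14 alveolar type 1 and 18.2% of 11 endothelial promoters, and in 0 of 13 ciliated cell promoters. A match is a description of letters and shows no binding.

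The promoters of Top2a (chr11:99024140-99024439, minus strand) and Ccnb1 (chr13:100786437-100786736, minus strand) are examples from the mitosis and S phase list. Those of Ager (chr17:34597600-34597899, plus strand) and Sftpa1 (chr14:41131538-41131837, plus strand) are examples of alveolar genes far above the reference. Each is printed 5′ to 3′ along its gene with every match on either strand in capitals. No 2 matches overlap.
Top2a: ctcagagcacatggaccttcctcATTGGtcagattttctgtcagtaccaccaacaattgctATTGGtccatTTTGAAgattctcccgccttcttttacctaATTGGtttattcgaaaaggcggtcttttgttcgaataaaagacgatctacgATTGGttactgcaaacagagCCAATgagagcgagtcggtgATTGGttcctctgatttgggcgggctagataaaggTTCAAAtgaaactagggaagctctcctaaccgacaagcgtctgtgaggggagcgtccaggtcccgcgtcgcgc
Ccnb1: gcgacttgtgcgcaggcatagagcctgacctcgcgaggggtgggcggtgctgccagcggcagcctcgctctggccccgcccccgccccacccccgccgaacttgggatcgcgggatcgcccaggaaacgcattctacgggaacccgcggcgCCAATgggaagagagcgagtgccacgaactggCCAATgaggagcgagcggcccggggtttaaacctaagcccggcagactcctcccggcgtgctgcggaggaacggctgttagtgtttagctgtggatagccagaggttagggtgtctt
Ager: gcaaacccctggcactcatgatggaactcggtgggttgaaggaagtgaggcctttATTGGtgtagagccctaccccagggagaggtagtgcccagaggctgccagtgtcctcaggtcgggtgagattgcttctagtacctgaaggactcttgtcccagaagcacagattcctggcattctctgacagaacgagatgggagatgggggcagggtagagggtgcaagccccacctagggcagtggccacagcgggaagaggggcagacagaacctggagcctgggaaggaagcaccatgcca
Sftpa1: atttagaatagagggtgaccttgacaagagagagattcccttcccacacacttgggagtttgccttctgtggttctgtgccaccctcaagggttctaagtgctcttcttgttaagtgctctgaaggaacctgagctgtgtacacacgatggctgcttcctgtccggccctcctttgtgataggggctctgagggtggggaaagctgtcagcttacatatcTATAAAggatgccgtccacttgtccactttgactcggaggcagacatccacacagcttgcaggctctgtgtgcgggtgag

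Top2a had 6 CCAAT and 2 TTTGAA matches, and Ccnb1 had 2 CCAAT matches, 99 and 67 bases before the start. The reverse complements of CCAAT and TTTGAA read ATTGG and TTCAAA. Ager held 1 CCAAT match, 195 bases before its start, and Sftpa1 held 1 TATAAA, 30 bases before its start. The promoters of Dlk1, far below the reference, and of Limch1 and Sftpb, far above it, held no match and are not printed. CpG sites numbered 16 and 29 in Top2a and Ccnb1 and 4 and 5 in Ager and Sftpa1, but 35 in the lung gene Limch1 and 9 in Dlk1, which was lower.

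The median promoter of tested genes held 20 CpG sites. Genes called lower also had a median of 20, those called higher 16, and those at least 16-fold higher 8. Genes seen in lung alone and genes seen in the reference alone both had a median of 8.

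None of the 12 lowest ratios among named genes belonged to the 34 genes listed for mitosis and S phase. That list does not hold every gene of cell division. Dlk1, an imprinted growth regulator of embryonic tissues, was -7.15, -6.44, -6.85, -7.04 and -7.25, and its second probe averaged -2.96. Il1rl1, the receptor for interleukin 33, was -6.23, -6.16, -6.17, -6.04 and -6.42, with -4.14 at its second probe. Rhox5, a homeobox gene of the X chromosome, averaged -5.42, Syt13 -5.08 and Hmga2, a chromatin protein of embryonic and tumour cells, -5.03. Sapcd2, H1f5, Wnt10a, Prrx2 and Sgo1 lay between -4.77 and -4.40. The monocyte chemokine genes Ccl2 and Ccl7 were at -4.52 and -4.35, and Ccl2 varied little between animals (SD 0.06).

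Genes seen in the reference alone were led by Ifi202b, at least 120-fold higher there, Spinkl, at least 26.9-fold, and Krt20, at least 15.6-fold. Mgarp, Ptx3, Asb5 and Has2, which makes hyaluronan, had bounds of 13.2-fold, 9.55-fold, 8.63-fold and 8.07-fold, and 4930550L24Rik one of 14.0-fold. Among 15 tested embryonic and imprinted genes, 6 were lower, 2 higher and 7 not called, with a median of -0.04. Hmga1, Igf2bp1, Igf2bp2 and the imprinted RNA H19 were at -2.84, -1.93, -1.98 and -2.56. Plagl1 averaged 3.64 at its brightest probe, with 0.39 to 3.67 over 4 probes, and Mest 1.73. The pluripotency genes Nanog, Utf1 and Sall4 averaged 0.30, -0.04 and -0.02.

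Housekeeping groups stayed close to the reference. None of 30 respiratory chain genes was called, with a median of -0.17 and a range from -1.17 for Cyc1 to 0.76 for Cox6a1. Cyc1 was called lower with median centring (adjusted p = 0.0436), in the authors' deposited table (0.0195), and over all 25 animals without and with a slide block (0.0364 and 0.0142). Against a ratio of 0 with no margin, however, 80.5% of all tested features passed limma's test, so closeness here means within 2-fold and not equality. Of 27 ribosomal protein genes only Rps3 was called, at -1.46, and the median was -0.21. With each array centred on its median in place of loess, these medians were -0.54 and -1.05, so their place relative to 0 depends on the normalisation.

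Genes often used to normalise measurements were not all alike. Of 14 tested, 2 were higher, 3 lower and 9 not called. Pgk1, a glycolytic enzyme, was -3.0, -2.93, -2.92, -2.91 and -2.98. Gapdh, another, was -1.89, -1.5, -1.51, -1.83 and -1.83, and its 7 probes ran from -3.03 to -0.44. Actb, the cytoplasmic actin, was 1.64, 1.60, 1.70, 1.66 and 1.66 and dropped to 0.63, not called, under median centring. Hprt, Ywhaz, Eef2 and Tbp averaged 0.04, 0.12, -0.03 and -0.18. Within the controls this list moved least of all lists from animal to animal, by at most 0.09 in its mean.

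Stress, clock and hormone genes sat on both sides. Of 18 immediate early and heat shock genes tested, 4 were higher and 3 lower. Egr1 was -2.51, -3.07, -2.29, -3.26 and -2.03, and Fos -2.06, -2.28, -0.84, -2.61 and -0.92, while Jun averaged 1.77. Controls 2 and 4 were the lowest for both Egr1 and Fos. The call for Fos was lost without control 1, 2 or 4 (adjusted p up to 0.124), and with trended and robust variances (0.182). Among 15 clock genes, 3 were higher and 2 lower. Dbp, a clock output that swings over the day, was -2.82, -3.05, -1.72, -0.67 and -1.60. Control 4 was the highest and control 2 the lowest, and the call was lost without control 1 or 2 (adjusted p up to 0.0686) and with trended and robust variances (0.160).

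Of 13 glucocorticoid-responsive genes, 3 were higher and 3 lower. Zbtb16 was 2.12, 3.04, 3.07, 3.84 and 3.47, with control 1 the lowest. Mt1 and Mt2, metal-binding proteins, averaged -2.20 and -3.11.

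Sex-linked genes were read because the labels and the design text disagree on sex. Xist, the RNA of the inactive X chromosome, was 0.41, -0.28, -0.04, 0.10 and 0.11 against the reference and was above background in all 5 animals. Of 4 genes of the Y chromosome, Kdm5d and Uty were above background in neither dye and Ddx3y was seen in the reference alone, at least 7.04-fold higher there. Eif2s3y had a signal in both dyes, with -1.13, -1.25, -1.94, -1.96 and -0.84. It was not called lower (adjusted p = 0.0518, limma treat), and it was called without control 1 or 5, with values of 0.0104 to 0.221 over the animals left out. Controls 1 and 5 shared a slide. Eif2s3y was also called with slide as a block over all 25 animals (adjusted p = 0.000188), with all 25 animals sharing the spread (0.0162) and in the authors' deposited table (0.00832). No animal stood apart from the other 4 in Xist or the Y genes.

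Genes of other organs were looked for in each animal. In the liver list, 3 of 5 tested genes were higher and 4 were seen in lung alone, among them Alb, at least 3.12-fold. Trf, transferrin, averaged 5.86 and Serpina1a 3.46, and both are also made outside the liver. Of 4 tested kidney genes only Cdh16 was higher, at 4.38, while Umod and Slc12a1 were above background in part of the arrays. The skin, testis, myoblast and mammary lists had 6, 4, 3 and 3 tested members, none of them higher in lung. In mesothelial genes 4 of 8 were higher and 1 lower, with Gpm6a at 4.22 and Wt1 at -0.44, -0.22, -1.93, -1.97 and -1.36.

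Variation between the animals was small for most genes. Over 17635 features above background in both dyes on all 5 arrays, the median SD was 0.14 on the log2 scale. Few features exceeded 0.5 by this measure. An SD of 0.5 or more was found in 198 features, or 1.12%. The median SD was 0.17 for features called higher, 0.15 for those called lower and 0.14 for the rest. In the 4 nanotube groups it was 0.13 to 0.15 over the same kind of comparison.

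Only 1 pair of controls shared a slide, so differences between slides and between animals cannot be told apart here. The median absolute difference was 0.11 between controls 1 and 5, which shared a slide, and 0.13 to 0.17 for the 9 pairs on different slides. A single animal given 42.7 µg of Mitsui XNRi-7 nanotubes per mouse had been hybridised on slides 3 and 4, and its own 2 arrays differed by a median of 0.16, inside the range of the control pairs on different slides. Differences above 1 were rarer for that animal, at 0.0113% of features against 0.306% to 1.17% between pairs of control animals. These shares were not compared by a test.

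The genes with the largest SD fell into recognisable sets. Fabp4, a fatty acid carrier of fat cells and macrophages, was 3.72, 7.25, 1.91, 2.21 and 2.15, an SD of 2.24. Car3, a carbonic anhydrase abundant in fat and muscle, was 3.54, 6.18, 1.62, 1.74 and 2.00. Control 2 was more than 2 log2 units above every other animal for both. Without control 2 the means fell from 3.45 to 2.50 for Fabp4 and from 3.02 to 2.23 for Car3, and both were still called. With trended and robust variance estimates in limma neither call held, at adjusted p-values of 0.152 and 0.165.

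Control 2 was also the highest in the fat list. All 10 listed genes, including those too dim for the test, had their highest ratio in control 2, which was the highest of the 5 in 20.2% of all features. Adipoq, the fat cell hormone adiponectin, was 2.47, 5.34, 1.11, 0.82 and 0.46. Ucp1, the heat-producing uncoupling protein of brown fat, was 2.34, 5.35, 0.09, 0.06 and 0.31, and above background in Cy5 in controls 1 and 2 only. Plin1, which coats fat droplets, was 1.49, 4.53, 0.43, 0.63 and 0.48. Control 1 was the second highest for these 3 genes. Lep was the dimmest, above background in no animal, and its place in that order carries no weight.

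Further genes, picked after their values were seen, were highest in control 2. Elovl6, which lengthens fatty acids, was -1.43, 1.67, -2.05, -2.01 and -1.92, and Dgat2, which makes triglyceride, -0.39, 2.28, -0.74, -0.91 and -0.97. Control 2 was the only animal on the lung side for both. Retn, Plin4, Slc2a4, Cox8b, Gpd1, Adrb3, Pcx and Agpat2, and also Jchain, Amy1 and Ifi27l2a, were each at least 1 above the next animal in control 2. In all, 44 of 17635 features, 0.25%, met that mark, which was chosen after the values were seen. How far fat cells in that sample account for these values was not tested.

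Heart muscle genes separated the animals in another way. Myh6, the atrial and adult heart myosin, was 5.99, 5.95, 6.16, 3.38 and 3.65. Myl4, an atrial light chain, was 3.61, 3.76, 3.50, 0.51 and 0.84, and Tnni3, cardiac troponin I, 2.24, 2.51, 2.93, -0.08 and 0.09. Controls 1 to 3 were high and controls 4 and 5 low for each, with no overlap. In mice, a sleeve of heart muscle runs along the pulmonary veins into the lung. The call for Myl4 was lost without control 1, 2 or 3 (adjusted p up to 0.151).

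Of the 15 heart muscle genes listed, 11 had controls 1 to 3 all above controls 4 and 5, a pattern that 9.03% of all features showed. Of the 7 tested against the reference, 4 were higher, 1 lower and 2 not called. Sln was 5.08, 5.13, 5.51, 1.85 and 2.26, and Myl7 3.64, 4.12, 4.12, 0.90 and 1.19. Mybpc3 showed the same order of animals but was the member called lower in lung, at -3.11, -1.92, -2.34, -3.74 and -3.36. The exceptions included Myh7, the slow and ventricular myosin, at 5.33, 4.97, 5.17, 5.50 and 5.12, and Actc1 at 1.96, 2.39, 2.53, 2.27 and 1.93. Nppa, the atrial hormone, was between -0.06 and 0.07, and above background in lung RNA in 2 animals. Myl2 and Nppb kept the order of animals but were above background in lung RNA in 1 animal each. Both patterns were read from these 5 animals after their values were seen and carry no test. The part that heart muscle in the lung sections has in these values was not tested.

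**Figure D4:**
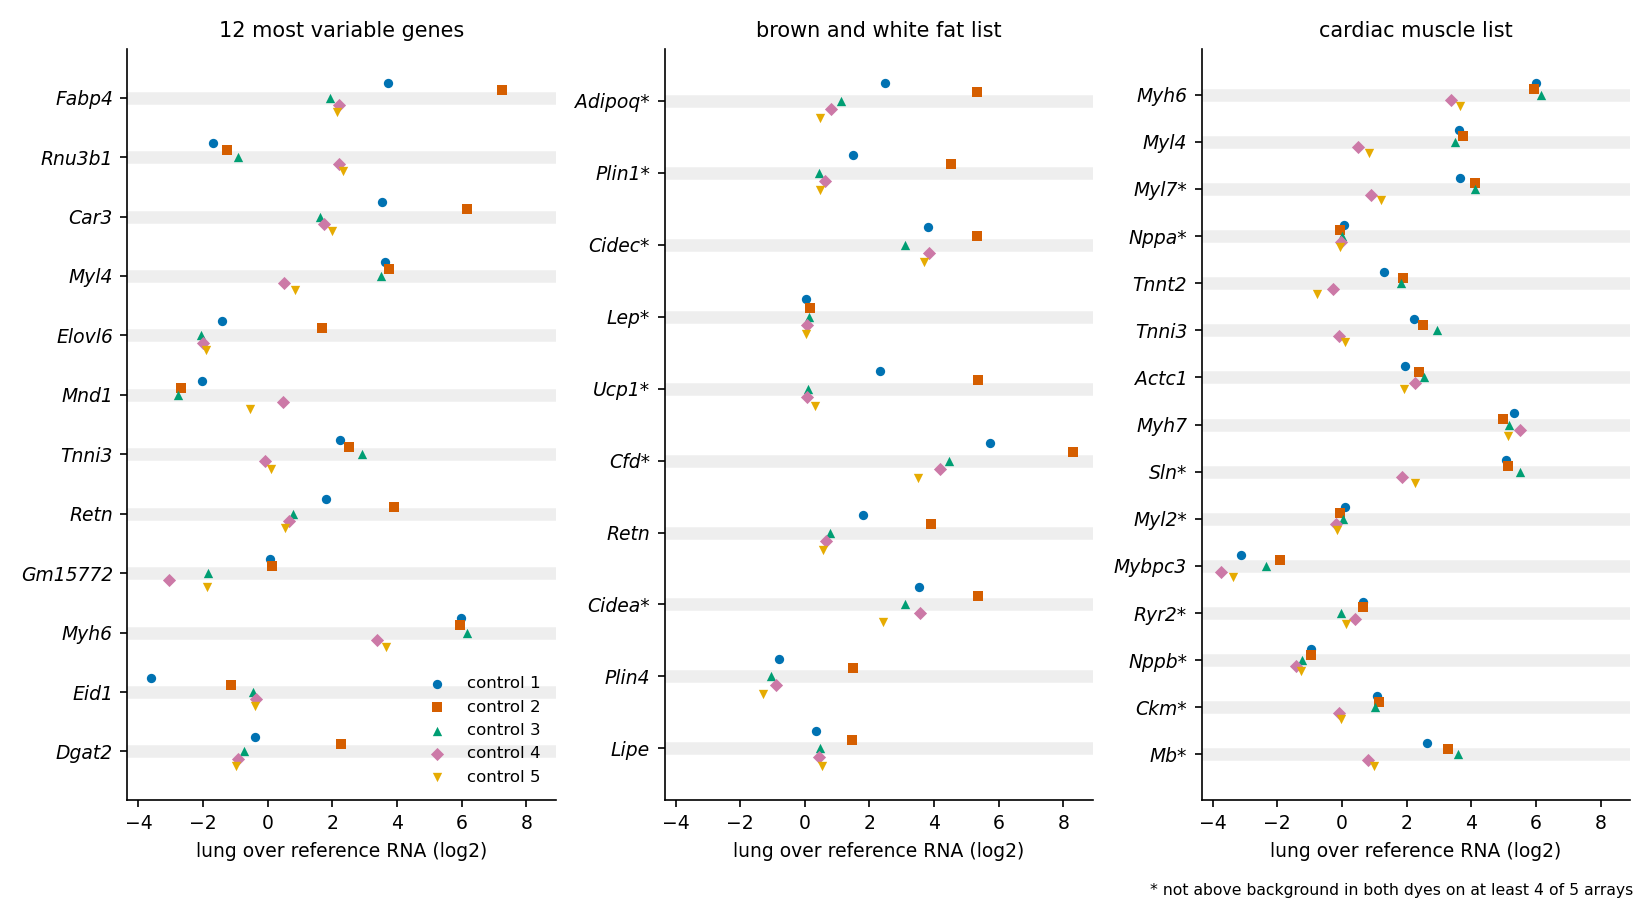
Log2 ratio of lung over reference RNA in each control animal (symbols) for the 12 genes with the largest SD (left), the 10 genes of the fat list (middle) and the 15 of the heart muscle list (right). Control 2 lies to the right of the other animals for Fabp4, Adipoq and Ucp1, and controls 4 and 5 lie to the left of controls 1 to 3 for Myh6, Myl4 and Sln.

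The remaining highly variable genes had other shapes. Rnu3b1, a small nucleolar RNA, was -1.70, -1.25 and -0.91 in controls 1 to 3 and 2.22 and 2.34 in controls 4 and 5. Mnd1, a meiotic recombination factor, was -2.03, -2.69, -2.78, 0.48 and -0.53. Eid1 was -3.60 in control 1 and -1.14 to -0.37 in the others at its brighter probe, while its dimmer probe averaged 0.10 with an SD of 0.18. Gm15772 was 0.07, 0.13, -1.86, -3.07 and -1.87.

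Averaged over the tested members of each list, the animals differed most in fat and heart muscle genes. The fat list, here Retn, Lipe and Plin4, had a range of 2.35 between animals and the heart muscle list 1.75. The B and plasma cell list ranged over 1.22, from -0.59 in control 4 to 0.63 in control 2, and the neutrophil list over 1.1, with control 4 again the lowest at -0.60. Among the lists of resident lung cells, the mesothelial list ranged over 0.83, the ciliated list over 0.70 and the club cell list over 0.51. The ranges were 0.32 for alveolar type 1, 0.24 for alveolar type 2, 0.23 for fibroblasts and 0.17 for endothelium. The macrophage list ranged over 0.38, with Fabp4 among its members.

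**Figure D5:**
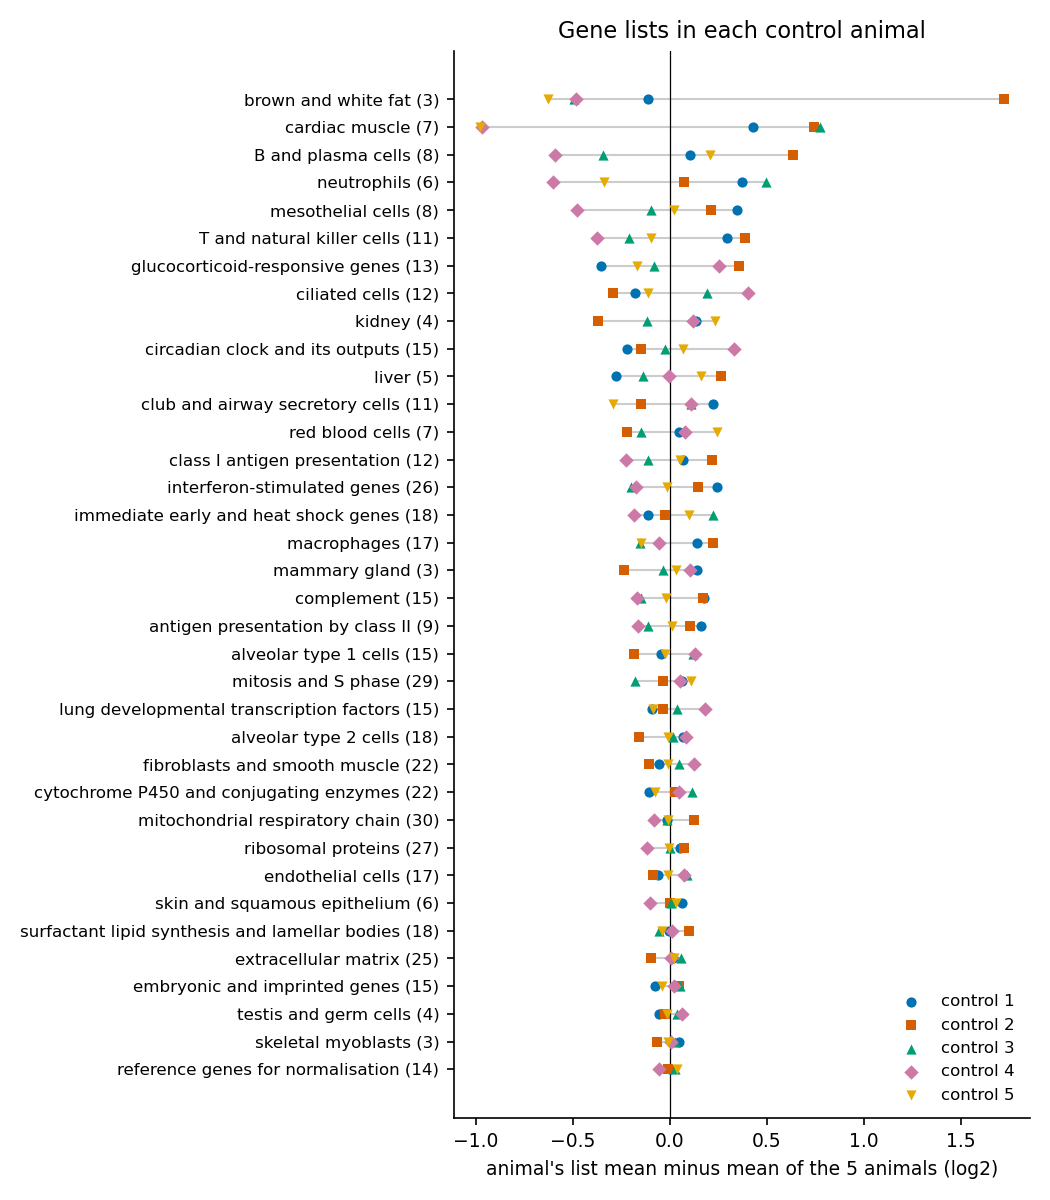
Mean of each gene list in each control animal (symbols) minus the mean of the 5 animals, on the log2 scale (horizontal axis), for lists with at least 3 tested members (number in brackets). The fat list reaches 1.72 in control 2, the heart muscle list lies at -0.97 and -0.98 in controls 4 and 5, and the lists of alveolar, endothelial and fibroblast genes stay between -0.18 and 0.13.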

How the data were processed

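Lung RNA of 5 control mice was measured on 2-colour Agilent arrays, each against the same universal mouse reference RNA. Per the file headers, the authors scanned them with Agilent Feature Extraction 11.0.1.1, and the deposited files give median spot and background intensity in each dye with flags, and a log10 ratio of Cy5 over Cy3 after that program's own correction. The authors' deposited value table holds log2 ratios, and was used as an alternative only. No reads are involved, so the number of arrays limits the precision.

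From the intensities, background was corrected with normexp (offset 50), which understates the ratio of dim genes, and each array was normalised by loess in limma 3.58.1 (R 4.3.3). Spots flagged as outliers (0.461%) and control spots were left out. Of 55681 probes, 27235 had a gene symbol. The brightest probe stood for a gene. A feature was tested where both dyes were well above background on at least 4 of 5 arrays, by limma's treat test beyond 2-fold with Benjamini-Hochberg adjustment. On simulated data of 24424 features, 98% of those set at a log2 ratio of 3 or -3 were called, 82% of those at 1.5, 74% of those at -1.5 and 0% of those at 0. Features set at 0 lie well inside the 2-fold margin, so that 0% does not measure false calls near the margin.

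Named are the 12 highest and 12 lowest called genes, the 8 largest bounds on each side, the 12 largest SDs, Sftpc, Scgb1a1, Ager, the sex-linked genes and up to 3 genes at each end of every list. Other list members given as examples were picked after their values were seen. The members and lists were chosen with earlier results of these data known. Promoter sequences are RefSeq's, build GRCm38.p6. Alternatives covered background, normalisation, probe choice, filters, the test, slide and each animal left out.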

Additional observations from a re-analysis of the deposited data

Results flagged for a closer look

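In each of 236 named genes and 36 list means, the highest or lowest of the 5 animals was set apart where its gap to the next animal, divided by the range, exceeded 0.71. That held for 22 of 272. Chance gives about 1 in 20 for independent values, but these include genes named for a large SD and genes that vary together, so the count cannot be set against that rate. By animal there were 4 in control 1, 11 in control 2, 2 in control 3, 5 in control 4 and 0 in control 5.

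In control 1, Eid1 was lowest at -3.60, Jun lowest at 1.36, Tmem100 lowest at 5.32 and Muc5b highest at 2.61. In control 2, the mean of the fat list was highest, 1.72 above its mean over the animals. The fat synthesis and storage genes Acaca at 1.91, Dgat2 at 2.28, Elovl6 at 1.67, Lipe at 1.45 and Plin4 at 1.48 were highest there. The plasma cell genes Jchain at -1.08 and Mzb1 at -2.58, and Wnt10a at -4.30, were also highest in control 2. Sftpb at 6.39 and Lhx1 at -0.58 were lowest in control 2. In control 3, Plagl1 was highest at 4.22 and Rrm2 lowest at -4.53. In control 4, Cyyr1 was highest at 6.19, and H1f5 at -4.97, H2-D1 at 2.38, Nkg7 at 1.56 and Rps3 at -1.77 were lowest.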

How the results depend on the processing

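No paired analysis was possible because the controls form 1 group and each ratio is taken within an array. In 3509 combinations of named gene and setting, 3394 stayed called or not called as before, 76 lost a call and 39 gained one, over 41 genes. No named gene that was called in all 5 animals changed direction. Direction was not counted for genes not called, and some of these crossed 0. Dgat2, for example, ran from -0.75 to 0.06 over the animals left out. Leaving out each animal gave 2260 to 2316 features higher, 1725 to 1868 lower, 1085 to 1449 seen in lung alone, 547 to 665 in the reference alone, a median SD of 0.13 to 0.14 and 158 to 254 features with an SD of 0.5 or more. Median centring in place of loess gave 1563 features higher and 1111 lower, and kept only 2629 of the 4170 calls (63%). It gave a median SD of 0.53 and 10352 features with an SD of 0.5 or more. That last count was 511 with Feature Extraction's log ratios, 361 with a normexp offset of 0 and 128 with slide effects removed. With no margin, 7831 features were higher and 7345 lower. Feature Extraction's log ratios and the authors' deposited table shifted the median feature by -0.12 and -0.13, and 47.9% and 48.9% of their calls were higher, against 56%. Fabp4, Car3, Myl4, S100a8, Fos and Dbp lost their calls with trended and robust variances. The causes of these changes were not tested. A fit on mean in place of median spot signal was not run, since the files used here hold median signals. Probes of a gene often differed in size, so ratios of single genes depend on the probe.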
